A study of Bos taurus with 21 samples.

Results

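The 7 cows whose milk somatic cell libraries held the most T cell transcript were compared with the 7 that held the least, out of 21 Holstein cows. T cells were read from CD3D, CD3E and CD3G, which encode the CD3 chains that every T cell receptor needs to reach the cell surface. For each cow the levels of these 3 genes, as CPM (counts scaled to the same total over all gene rows in every cow), were put on the scale log2(CPM + 0.25) and averaged to a score. The highest 7 scores made the T cell-rich cows, the lowest 7 made the T cell-poor cows, and the 7 cows between were kept apart. The groups were therefore chosen from the RNA values themselves, and CD3D, CD3E and CD3G are given only as a description.

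The cells came from the milk of lactating Holstein cows on 1 farm, each cow gave 1 library, and total RNA was taken with TRIzol reagent. The study sorted the animals by the Korea Type-Production Index. The high milk-yielding (HY) group held 9 cows and the low milk-yielding (LY) group 12 cows, and no cow received a treatment. Parity ran from 2 to 4 and the lactation period from 41 to 270, read as days because the labels name no unit. The T cell-rich cows were 2 HY and 5 LY animals, and the T cell-poor cows were 4 HY and 3 LY animals.

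Milk somatic cells are the cells shed into milk. They are a mixture of macrophages, neutrophils, lymphocytes and epithelial cells of the mammary gland, and the lymphocytes of healthy milk are mostly T cells. A T cell recognises a peptide through its receptor, the CD3 chains and CD247 pass the signal into the cell through the kinases LCK and ZAP70, and the co-receptors CD4 and CD8 mark helper and cytotoxic T cells. Cattle also carry many gamma delta T cells, a share of which bear the WC1 co-receptors. In RNA from a mixture of cells, fewer T cells and less RNA per T cell cannot be told apart.

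The score ran from 6.30 to 7.94 in the T cell-rich cows, from 5.29 to 6.21 in the cows between and from 1.97 to 4.82 in the T cell-poor cows. The lowest of the T cell-rich cows was cow 3135 at 6.30, and cow 3014 stood just outside at 6.21. The highest of the T cell-poor cows was cow 7598 at 4.82, and the nearest cow outside that group was cow 3057 at 5.29. CD3D was 58.4 CPM at the lowest, 145 at the median and 209 at the highest T cell-rich cow, against 2.54, 11.8 and 22.7 in the T cell-poor cows. CD3E was 110.3, 205 and 371 CPM against 10.5, 33.7 and 55.2 CPM. CD3G was 58.5, 117 and 193 CPM against 1.76, 6.85 and 17.3 CPM. T cell transcript was thus present in every library, and cow 3264 held the most and cow 3280 the least. With the 7 milk protein genes taken out of the totals, the T cell-rich cows were the same 7 and cow 3057 replaced cow 7598 among the T cell-poor cows. With CPM scaled by trimmed mean of M values (TMM), cow 3014 also replaced cow 3135 among the T cell-rich cows.

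The libraries of the groups also differed in other ways. Total counts on genes were between 9601126 and 28541904 in the T cell-rich cows with a median of 20558970, and between 7878557 and 25550423 in the T cell-poor cows with a median of 10217225. Genes seen at least once numbered 10834 to 11269 in a T cell-rich cow, against 9056 to 10852 in a T cell-poor one. Reads placed on no gene were 23.9% to 31.9% (median 29.6%) in the T cell-rich and 13.0% to 30.8% (median 22.6%) in the T cell-poor cows. Their part in the results was not tested. Libraries with the higher mapping rate were 4 of the 7 T cell-rich cows, 1 of the cows between and 0 of the T cell-poor cows. The 7 milk protein genes (caseins, alpha-lactalbumin, beta-lactoglobulin and GLYCAM1) took 0.259% to 34.3% of the counts in the T cell-rich cows, with a median of 5.58%, and 0.118% to 60.5% in the T cell-poor cows, with a median of 32.0%. Exceptions were cow 3264, which was the richest in T cell transcript and had 34.3%, and the T cell-poor cows 3235 at 0.118% and 3198 at 2.21%. The parts of depth, mapping rate and milk protein in the results were tested only as far as the fits given beside each result.

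**Figure D1:**
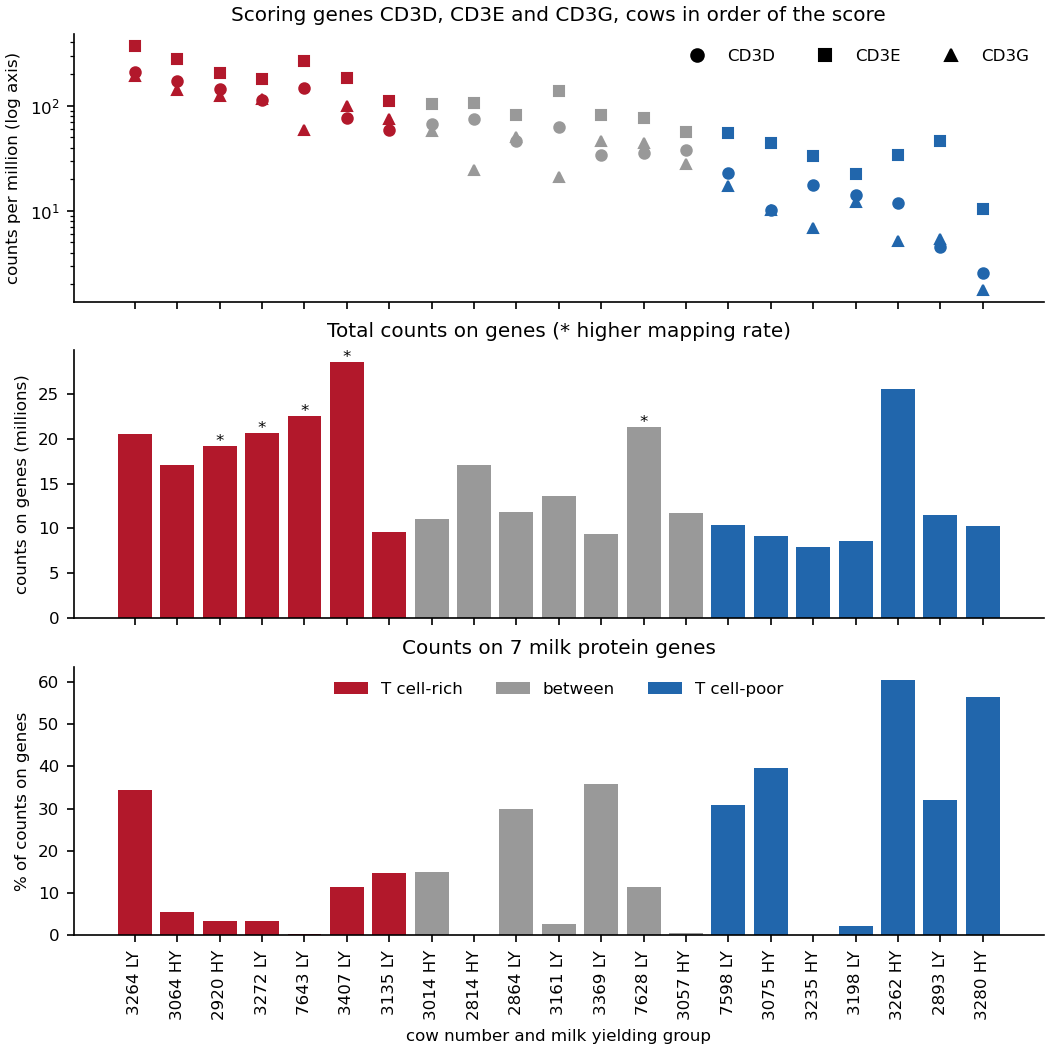
CPM of CD3D, CD3E and CD3G (points, log axis), total counts on genes and the percent of counts on 7 milk protein genes (bars, 1 per cow), with the cows in order of the score from left to right, colours for the groups and stars for libraries of higher mapping rate. The CD3 genes fall from left to right because the cows are ordered by them, 4 of the 7 T cell-rich cows carry a star, and the milk protein share is 34.3% in the leftmost cow, 3264, and 60.5% at most among the T cell-poor cows.

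Of 9721 genes tested between the groups with the quasi-likelihood test of edgeR, 252 were higher in the T cell-rich cows and 329 were lower at a Benjamini-Hochberg adjusted p under 0.05. These were 2.59% and 3.38% of the genes tested. Without adjustment, 2684 of the 9721 genes had a p under 0.05 in either direction. DESeq2, a second test, called 779 genes higher and 961 lower. The 7 T cell-rich values all lay above the 7 T cell-poor values for 135 genes, 1.39% of those tested, and all below for 25 genes, 0.257%. The median log2 fold change of all genes was 0.02, and that of the called genes was 1.90 for the higher and -1.48 for the lower ones. Because the groups were cut by CD3 values of the same libraries, a low p says that a gene moved with those values. The fold changes below are log2 of T cell-rich over T cell-poor with the standard error (SE, n = 7 and 7 cows), and the levels are TMM-scaled CPM.

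The counts of called genes were sensitive to single cows. Without 1 T cell-rich cow, the higher genes numbered 72 (cow 3272), 78 (cow 2920), 83 (cow 3064), 126 (cow 3135) and 623 (cow 7643), and the lower genes 8, 11, 19, 24 and 741 in the same order. Without 1 T cell-poor cow, the higher genes numbered 92 (cow 3280), 126 (cow 3262), 135 (cow 2893), 160 (cow 3075), 425 (cow 3235) and 539 (cow 3198), and the lower genes 29, 43, 46, 114, 797 and 743. Without cow 3407 the lower genes numbered 141. Without the libraries of higher mapping rate, which left 3 T cell-rich against 7 T cell-poor cows, 4 genes were higher and 0 lower by edgeR, with 907 and 904 at an unadjusted p under 0.05. The 4 genes were ETS1, ICOS, RBL2 and LPAR6. They were also the genes among those named here that were called in all 29 other fits, and all 581 genes called kept their sign in every fit that held them.

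ETS1 gave the lowest p among all genes. It encodes a transcription factor of lymphocytes that T cells need for their survival and receptor signalling. Its level was 74.8 at the lowest, 149 at the median and 204 at the highest T cell-rich cow, and 3.73, 11.7 and 13.5 in the T cell-poor cows. The groups did not overlap, and the lowest T cell-rich cow (3407) stood well above the highest T cell-poor cow (3235). The log2 fold change was 3.90 ± 0.36 (SE, adjusted p = 3.72e-05), or 14.9-fold, and 3.77 without the libraries of higher mapping rate (adjusted p = 0.00442).

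Signalling genes downstream of the T cell receptor were mostly higher in the T cell-rich cows. Of 23 tested signalling genes, 15 were called higher and 0 lower, against 2.59% higher among all genes, and all 23 had a fold change above 0, with a median of 2.07 on the log2 scale. Since CD3 chose the cows, this restates the choice and is no independent support. With at least 10 counts required in every cow, 12 of the signalling genes were fitted and 8 were called. Of all 7143 genes fitted under that filter, 203 were called higher. PLCG1, a phospholipase that the T cell receptor activates, was 14.6 at the lowest, 23.6 at the median and 38.2 at the highest T cell-rich cow, against 1.51, 2.53 and 6.71 in the T cell-poor cows (2.72 ± 0.37, adjusted p = 0.00207), and did not overlap between the groups. THEMIS, an adaptor that sets the strength of receptor signals, was 4.69, 7.98 and 14.7 against 0, 0.699 and 0.921 (4.06 ± 0.63, adjusted p = 0.00401), and FYN, a kinase of the same family as LCK, was 72.9, 129 and 160 against 19.4, 33.7 and 70.6 (1.69 ± 0.28, adjusted p = 0.00514). FYN showed the narrower gap, with its highest T cell-poor cow just under its lowest T cell-rich cow.

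CD247 encodes the zeta chain that docks with the CD3 chains and was not used to choose the cows. It was 25.9, 63.7 and 112 in the T cell-rich and 8.47, 13.8 and 27.3 in the T cell-poor cows (2.07 ± 0.36, adjusted p = 0.00663), and the ends of the groups overlapped. LCK rose by 2.80 ± 0.49 (adjusted p = 0.00735), TRAT1, a receptor-associated adaptor, by 4.00 ± 0.70 (adjusted p = 0.00777) and ZAP70 by 1.56 ± 0.37 (adjusted p = 0.0303), all on the log2 scale and none overlapping between the groups. Not all adaptors moved. LCP2 and VAV1, which macrophages and neutrophils also use, had fold changes of 0.11 (adjusted p = 0.884) and 0.23 (adjusted p = 0.774). LCP2 was 142 to 423 in the T cell-rich and 83.2 to 541 in the T cell-poor cows, so its ranges lay across each other.

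Among 22 surface receptors of T cells, 14 were called higher and 0 lower, against 2.59% higher among all genes. All 22 had a fold change above 0 (median 2.20). With at least 10 counts required in every cow, 10 were fitted and 6 were called. ICOS, a costimulatory receptor of activated T cells, was 16.9, 32.3 and 42.9 against 1.27, 3.64 and 5.05 (3.10 ± 0.34, adjusted p = 0.000282, 8.6-fold). CD2, the adhesion receptor of T and natural killer cells, was 33.1, 64.3 and 160 against 2.07, 6.71 and 16.9 (3.04 ± 0.46, adjusted p = 0.00314). Both separated the groups, with cow 3264 at the top for CD2 as it was for the score. SLAMF1, a receptor that binds itself on neighbouring cells, was 6.17, 9.14 and 16.9 against 1.13, 1.87 and 3.80 (2.34 ± 0.39, adjusted p = 0.00564). CD28, the main costimulatory receptor of resting T cells, rose by 3.04 ± 0.71 (adjusted p = 0.0283), and CTLA4, which counters it, by 3.12 ± 0.85 (adjusted p = 0.0432), both at levels under 14 CPM. The number of surface receptors called was 7 without cow 3064 or cow 3280, 8 without cow 2920 or cow 3272 and 9 without cow 2893.

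The co-receptors CD4 and CD8 were higher with the score. CD4 was 49.7 (cow 3135), 165 and 300 (cow 7643) in the T cell-rich cows and 5.84 (cow 3280), 14.7 and 47.8 (cow 3262) in the T cell-poor cows. The log2 fold change was 2.70 ± 0.50 (adjusted p = 0.0113, 6.51-fold), and the groups nearly touched at cows 3135 and 3262. CD4 is also carried by some macrophages and dendritic cells. CD8A, the alpha chain of CD8, was 17.6, 28.5 and 57.9 against 0.565, 3.84 and 8.98 (2.96 ± 0.46, adjusted p = 0.00401, 7.75-fold) and did not overlap. CD8B, the beta chain of cytotoxic T cells, was 11.3, 20.6 and 43.2 against 0.565, 4.75 and 13.0 (2.07 ± 0.53, adjusted p = 0.0362), with overlap at the ends, and it lost its call in 9 of the 14 fits without a single cow. The ratio of CD4 to CD8A counts was 2.83 to 9.77 in the T cell-rich cows (median 5.33), 3.45 to 8.26 in the cows between (median 3.64) and 2.00 to 10.3 in the T cell-poor cows (median 6.08). The ratio does not correct for gene length, so it compares cows only, and its ranges lay across each other. No shift between the co-receptors was visible beyond the spread between cows.

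**Figure D2:**
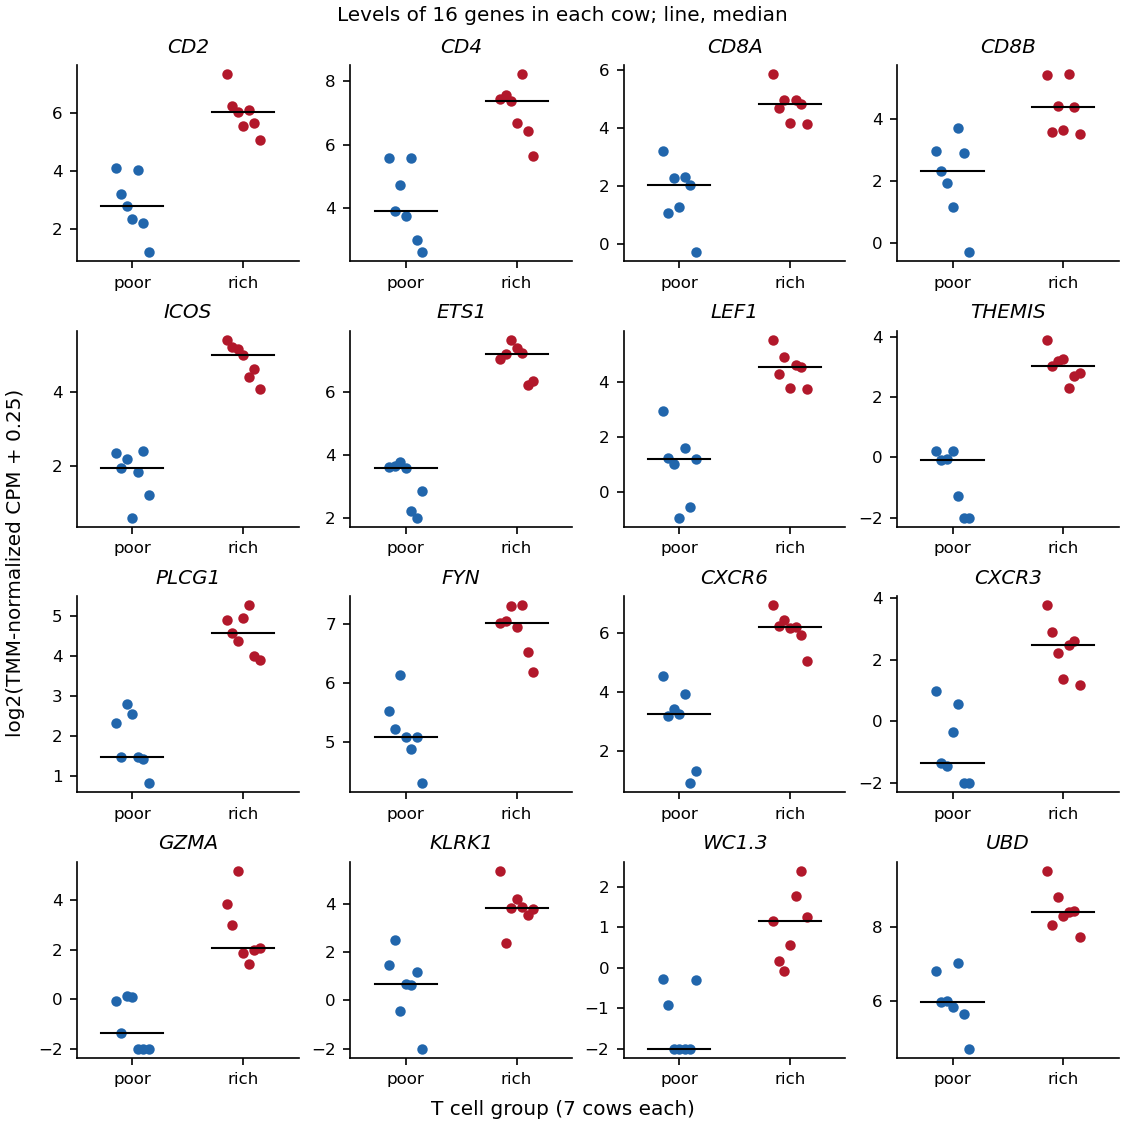
Levels of 16 genes as log2(TMM-scaled CPM + 0.25) in the T cell-poor and the T cell-rich cows, with 1 point per cow and a line at the median of each group of 7. ETS1, ICOS, CD2, CD8A and UBD show 2 separate clouds of points, while those of CD8B overlap at their ends.

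Of genes linked to gamma delta T cells only 2 could be tested, and edgeR called 1 of them higher. With at least 10 counts required in every cow, neither was fitted. WC1.3, a co-receptor of the WC1 family, was 0.698, 1.98 and 5.04 in the T cell-rich and 0, 0 and 0.576 in the T cell-poor cows (3.52 ± 0.89, adjusted p = 0.0355). These are few counts, WC1 genes are close copies of each other, and the counting could place their reads on another copy or drop them, so the level is uncertain. WC1.3 lost its call in 9 of the 14 fits without a single cow. It averaged 1.43 counts in the T cell-poor and 59.1 in the T cell-rich cows, so it passed the filter through cows outside the T cell-poor group.

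Of 25 tested transcription factors of T cells, 7 were called higher and 0 lower (median fold change 1.14), against 2.59% higher among all genes. With at least 10 counts required in every cow, 13 were fitted, 3 were called and the median was 1.02. Besides ETS1, LEF1, a factor of the Wnt pathway in immature and memory T cells, was 13.3, 23.2 and 46.9 against 0.272, 2.07 and 7.49 (3.34 ± 0.57, adjusted p = 0.00663). IKZF3, which encodes Aiolos, was 6.20, 18.1 and 30.1 against 0, 0.817 and 2.94 (4.22 ± 0.81, adjusted p = 0.0134). EOMES, a factor of cytotoxic and memory cells, was 3.99, 8.70 and 11 against 0, 0.182 and 1.84 (3.45 ± 0.79, adjusted p = 0.0268). None of the 3 overlapped between the groups. TBX21, the factor of the Th1 programme, rose by 2.06 ± 0.59 (adjusted p = 0.0481). GATA3, the Th2 factor, had a fold change of 0.07 (adjusted p = 0.939), and FOXP3, the factor of regulatory T cells, one of 2.18 ± 0.80 (adjusted p = 0.0924). GATA3 is also a gene of the mammary epithelium. The count of 7 was 3 without cow 2920, 3272 or 3280 and 4 without cow 2893, 3064 or 3075. The differences between these factors were not tested against each other.

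Of 21 tested cytotoxic genes, 7 were called higher and 0 lower (median 2.00), against 2.59% higher among all genes. Several passed the filter only through the T cell-rich cows, and with at least 10 counts required in every cow 7 were fitted, of which 1 was called, 4 had a fold change above 0 and the median was 0.46. GZMA, granzyme A, was 2.41, 3.99 and 36.6 (cow 2920) against 0, 0.140 and 0.839 (4.78 ± 0.91, adjusted p = 0.0118). The table held a further row for the same gene name in another spelling, so its reads may be divided. KLRK1, the activating receptor NKG2D, was 4.95, 13.7 and 40.7 against 0, 1.36 and 5.45 (3.14 ± 0.64, adjusted p = 0.0178), and KLRD1, the CD94 chain of natural killer receptors, was 0.945, 5.09 and 13.0 against 0, 0.360 and 1.14 (3.66 ± 0.76, adjusted p = 0.0190). PRF1, which encodes perforin, was 6.21, 27.2 and 118 (cow 7643) against 2.07, 7.31 and 15.3 (2.17 ± 0.58, adjusted p = 0.0420). NKG7, a granule protein, was 77.3 to 177 against 62.1 to 254 (-0.16, adjusted p = 0.776). GZMB had 0 counts in all cows, which sets only a limit on its counts at these depths. The count of 7 fell to 2 without cow 3272, to 3 without cow 2920, 3064 or 3280, and to 4 without cow 2893 or 3262.

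SAMD3, which is expressed in cytotoxic lymphocytes and whose role is not settled, was 2.67, 4.39 and 14.9 against 0, 0.908 and 1.63 (2.84 ± 0.69, adjusted p = 0.0316).

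Of 25 tested receptors that guide lymphocytes into tissue, 5 were called higher and 0 lower (median 0.79), against 2.59% higher among all genes. The median was 0.40 without cow 7643. With at least 10 counts required in every cow, 17 of these receptors were fitted, 2 were called and the median was 0.42. CXCR6, a receptor of T cells that stay in tissues, was 32.6, 72.8 and 122 against 1.65, 9.44 and 22.8 (2.87 ± 0.48, adjusted p = 0.00564). CXCR3, the receptor for chemokines induced by interferon, was 1.99, 5.33 and 13.3 against 0, 0.140 and 1.73 (3.35 ± 0.77, adjusted p = 0.0268). Both separated the groups. CCR2, which monocytes carry too, was 8.48, 22.8 and 37.4 against 0, 2.76 and 9.53 (2.79 ± 0.72, adjusted p = 0.0382), and CCR8 was 0.307, 1.16 and 5.99 against 0, 0 and 0.454 (4.39 ± 0.96, adjusted p = 0.0255), few counts in either group. CCR7, which brings lymphocytes into lymph nodes and is also carried by dendritic cells, had a fold change of 0.09 (adjusted p = 0.926). The count of 5 fell to 1 without cow 2920, 3272 or 3280, to 2 without cow 3064 and to 3 without cow 3075, 3135, 3262, 3407 or 7598, and it was 8 without cow 3198 or cow 3235.

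Cytokines of lymphocytes and their receptors gave 1 higher call each, of 7 and 12 tested, against 2.59% higher among all genes. With at least 10 counts required in every cow, 5 and 9 were fitted, and 0 of either were called. LTA, lymphotoxin alpha, was 1.13, 1.77 and 6.06 against 0, 0.461 and 0.734 (2.81 ± 0.77, adjusted p = 0.0432), and IL12RB2, a chain of the interleukin-12 receptor, was 5.33, 10.4 and 31.8 against 0, 2.64 and 5.16 (2.55 ± 0.73, adjusted p = 0.0485). Both separated the groups, but 10 of 14 fits without a single cow left no cytokine called and 11 left no receptor called. IL7R, which naive and memory T cells need, was 84.2, 142 and 243 against 4.50, 20.8 and 106 and missed the threshold (1.90, adjusted p = 0.0586). TNF was 835 in cow 7643 and had a median of 26.3 in the T cell-rich cows, and CSF2 was 83.0 in the same cow with a median of 0.343.

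Chemokines listed as attracting T cells did not follow the T cell genes. The list includes CCL26, which is known mainly for attracting eosinophils. Of 17 tested, 0 were called higher and 2 lower, against 2.59% and 3.38% of all genes, and 7 had a fold change above 0. With limma-voom, and with the milk protein genes left out, 0 were called in either direction. DESeq2 and the slope over 21 cows each called 3 lower. CCL26 was 0.129, 1.40 and 4.48 in the T cell-rich cows and 0.480 (cow 3235), 29.1 and 56.5 (cow 3262) in the T cell-poor cows. Its log2 fold change was -3.81 ± 0.87 (adjusted p = 0.0262). CCL25 was 2.96, 3.76 and 6.15 against 3.48, 11.4 and 30.5 (-1.59 ± 0.44, adjusted p = 0.0458). Neither was called without any of cows 2893, 2920, 3064, 3135, 3262, 3272 or 3280. With the milk protein share as a covariate, CCL26 was still called (-2.24, adjusted p = 0.0212) and CCL25 did not (-1.14, adjusted p = 0.0818). CCL5, which T cells themselves release, had a fold change of -0.64 (adjusted p = 0.524). Of 14 ligands for T cell receptors on antigen presenting cells, 0 were called in either direction by edgeR or DESeq2 (median 0.48, or 0.31 without cow 2920 and 0.24 without cow 7643), with 1 higher at an unadjusted p under 0.05.

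**Figure D3:**
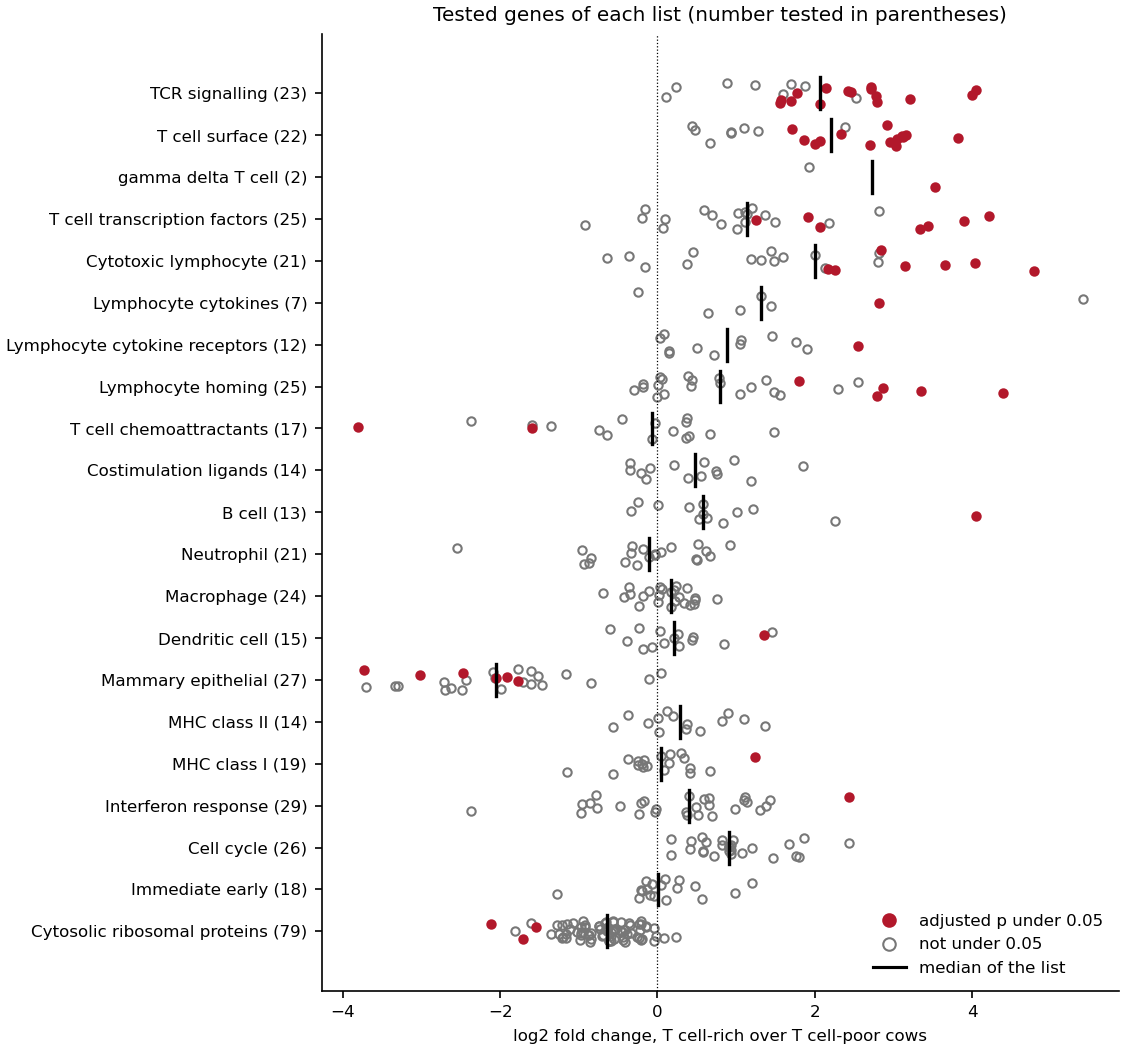
Log2 fold change of every tested member of each gene list, T cell-rich over T cell-poor cows, with filled red points for an adjusted p under 0.05 and a line at the median of the list. The T cell receptor signalling and T cell surface lists lie wholly above 0, with medians of 2.07 and 2.20, and 26 of the 27 mammary epithelial genes lie below 0.

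Over the 8 lists of lymphocyte genes together, 51 of 137 tested genes were higher and 0 lower, or 37.2% against 2.59% of all genes. Because CD3 values of the same libraries chose the cows, this share restates the choice and is no independent support. Without the libraries of higher mapping rate, 2 of the 137 were called and the median fold change was 1.52 against 1.56 with all 14 cows. With parity and lactation period in the model 13 were called, with HY or LY in the model 28, and with the milk protein share in the model 50. With at least 10 counts required in every cow, which removes genes near 0 in the T cell-poor cows, 73 of the genes were fitted, 20 were called and the median was 1.02. That filter left 7143 genes in all, of which 203 were called higher. Without a single cow the number called ran from 25 (cow 3272) to 60 (cow 7643), and was 26 without cow 2920 or cow 3280 and 29 without cow 3064.

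Genes of the other white cells were closer between the groups. Of 13 tested B cell genes, 1 was called higher, against 2.59% of all genes. This was POU2AF1, a coactivator of B and plasma cells. It was 1.06, 2.99 and 6.07 in the T cell-rich and 0, 0 and 0.839 in the T cell-poor cows (4.05 ± 0.90, adjusted p = 0.0260), and reached 53.3 in a cow between. MS4A1, which encodes CD20, had a fold change of 2.25 (adjusted p = 0.0686), CD79A one of 0.53 (adjusted p = 0.666), and CD37, the B cell gene with the most counts, one of 0.58 (adjusted p = 0.25). The B cell genes summed to 164 to 283 CPM in the T cell-rich and 48.2 to 234 CPM in the T cell-poor cows. With at least 10 counts required in every cow, 4 B cell genes were fitted and 0 were called.

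Neutrophil genes gave 0 calls of 21 and macrophage genes 0 calls of 24 by edgeR, with medians of -0.10 (-0.34 to 0.16 without a single cow) and 0.18 (0.03 to 0.38). At an unadjusted p under 0.05, 1 neutrophil gene was lower and 0 macrophage genes differed, and DESeq2 called the same numbers. S100A12, an antimicrobial protein of neutrophils, was 1431 to 3073 against 1009 to 4705 (-0.41 ± 0.35, adjusted p = 0.470), and CTSB, a protease of macrophage lysosomes, was 4025 to 15153 against 5566 to 22262 (-0.37 ± 0.42, adjusted p = 0.600). Neutrophil genes summed to 3959 to 21780 CPM in the T cell-rich and 2622 to 20360 CPM in the T cell-poor cows. For macrophage genes the sums were 13020 to 33030 CPM and 14170 to 44250 CPM. The ranges of the groups overlapped for both sums, and the highest macrophage sum of either group was in T cell-poor cow 3198. Of 15 dendritic cell genes, 1 was called higher, against 2.59% of all genes. This was LAMP3, a marker of mature dendritic cells, at 43.1, 59.9 and 99.5 against 6.40, 25.4 and 55.1 (1.35 ± 0.39, adjusted p = 0.0487). It lost its call in 10 of the 14 fits without a single cow. CD83, the dendritic cell gene with the most counts, was 184 to 1325 against 263 to 656 (0.21 ± 0.40, adjusted p = 0.765), with its highest value in cow 7643. No erythroid gene passed the filter, and HBB was at 0 in all cows.

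**Figure D4:**
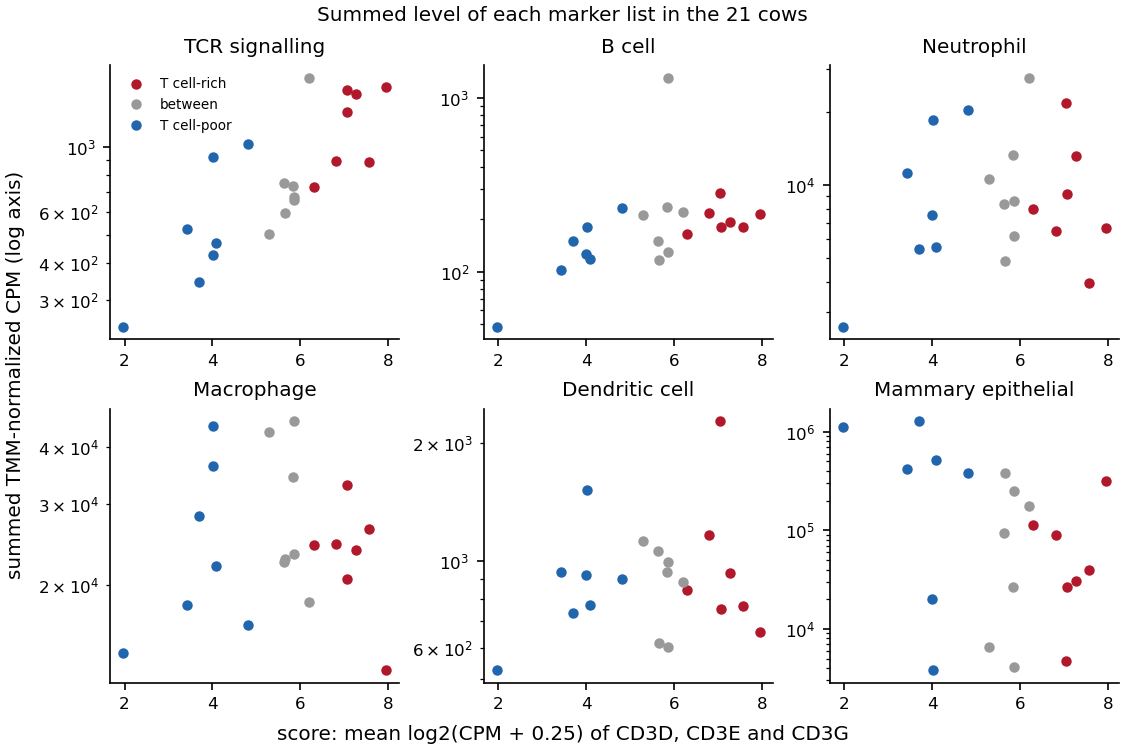
Summed TMM-scaled CPM of 6 gene lists (log axis) against the T cell score, with 1 point for each of the 21 cows. The T cell receptor signalling sum was 242 to 1023 in the T cell-poor and 731 to 1611 in the T cell-rich cows, so the groups overlapped. Its highest value, 1730, was in cow 3014, a cow between. Because CD3 chose the cows, a higher sum in the T cell-rich cows is no independent support. The neutrophil and macrophage sums overlapped between the groups, and the highest macrophage sum of either group was in T cell-poor cow 3198.

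Mammary epithelial genes ran the other way. Of 27 tested, 0 were called higher and 6 lower, against 3.38% lower among all genes, and 26 had a fold change below 0 (median -2.05). EPCAM, the adhesion molecule of epithelia, was 4.57, 8.30 and 38.5 (cow 3264) in the T cell-rich cows and 6.47 (cow 3235), 86.0 and 143 (cow 3280) in the T cell-poor cows (-2.47 ± 0.62, adjusted p = 0.0353). The keratin KRT7 was 10.6, 29.6 and 44.7 against 12.7, 107 and 219 (-2.05 ± 0.52, adjusted p = 0.0353), and the keratin KRT8 was 5.44, 12.6 and 27.8 against 8.99, 60.4 and 109 (-1.91 ± 0.49, adjusted p = 0.0362). MUC1, a mucin of the epithelial surface, was 5.80, 7.06 and 70.5 against 2.52, 172 and 813 (-3.74 ± 0.96, adjusted p = 0.0375). All 4 overlapped between the groups. In the sum of the mammary genes, cow 3264 stood highest among the T cell-rich cows, and cows 3235 and 3198 stood lowest among the T cell-poor cows.

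The milk proteins themselves did not pass the test. CSN2, beta-casein, had a fold change of -1.99 ± 1.1 (adjusted p = 0.246) and LALBA, alpha-lactalbumin, one of -3.71 ± 1.20 (adjusted p = 0.0665). CDH1, which encodes E-cadherin, was 7.15 to 23.1 against 7.91 to 18.2 (0.04, adjusted p = 0.944). With the milk protein share in the model the median of the mammary list was -1.05, 1 of its genes was called, and EPCAM kept its call (-1.68, adjusted p = 0.0309) while KRT7 (adjusted p = 0.107), KRT8 (adjusted p = 0.0970) and MUC1 (adjusted p = 0.0588) did not. Without the libraries of higher mapping rate the median was -1.58 and 0 were called. The count of 6 was 0 without any of cows 2893, 2920, 3064, 3135, 3262, 3272 or 3280, 2 without cow 3075 or cow 3407, 4 without cow 7598, 10 without cow 3198 or cow 3264 and 13 without cow 3235.

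Among interferon-induced genes, 1 of 29 was called higher and 0 lower, near the background of 2.59%. At an unadjusted p under 0.05, 5 were higher and 5 lower, where 2684 of all 9721 genes had such a p in either direction. DESeq2 called 3 of each (779 and 961 of all genes). The median fold change was 0.40, but 0.12 without cow 3272 and 0.62 without cow 3198. The gene called by edgeR was UBD, which encodes the ubiquitin-like protein FAT10 and is induced by interferon gamma together with TNF. UBD was 213, 342 and 749 (cow 3264) in the T cell-rich and 25.4, 61.5 and 129 in the T cell-poor cows (2.43 ± 0.37, adjusted p = 0.00314, 5.4-fold) and did not overlap. OASL, a further gene that interferons induce and that stood in none of the lists, was 10.7, 35.2 and 59.5 against 1.18, 5.30 and 8.32 (2.93 ± 0.44, adjusted p = 0.00314), again with no overlap. ERAP2, the peptidase that trims peptides for MHC class I, was the 1 of 19 MHC class I genes called higher, at 55.3, 71.2 and 121 against 11.7, 33.1 and 60.8 (1.24 ± 0.35, adjusted p = 0.0459). It lost its call in 9 of the 14 fits without a single cow. Of 14 MHC class II genes, 0 were called by edgeR, with 3 higher at an unadjusted p under 0.05 and 2 called higher by DESeq2 (779 of all genes).

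Cell cycle genes gave 0 calls of 26 by edgeR, although all 26 had a fold change above 0 (median 0.91) and 12 an unadjusted p under 0.05. Of all 9721 genes, 2684 had such a p in either direction. Without cow 3064, whose cell cycle genes summed to 1662 CPM against 446.8 to 939.6 CPM in the other T cell-rich cows, the median was 0.57 and 24 of 26 were above 0. DESeq2 called 9 of the 26 higher (779 of all genes), edgeR 7 without cow 7643 (623 of all genes), and the slope over 21 cows 11 (956 of all genes). Of 18 immediate early genes, which answer handling or stimulation within minutes, 0 were called (median 0.00, or -0.31 to 0.32 without a single cow), with 1 higher and 1 lower at an unadjusted p under 0.05 and 1 called higher by DESeq2. Of 79 cytosolic ribosomal protein genes, 0 were called higher and 3 lower, a share near the 3.38% of all genes, and 77 had a fold change below 0 (median -0.64). Among the called were RPL21 (-1.71 ± 0.47, adjusted p = 0.0430) and RPS27L (-2.11 ± 0.57, adjusted p = 0.0425). RPL21 has many near-identical copies in the genome, so its counts are uncertain. With total counts in the model 26 of the 79 were lower (953 of all genes). The number lower was 16 by DESeq2 (961 of all genes), 37 by the slope over 21 cows (1227 of all genes) and 0 by limma-voom (148 of all genes). Without a single cow the number was 17 (cow 3198), 12 (cow 3235), 8 (cow 7643), 5 (cow 7598), 2 (cow 3264), 1 (cow 3407) or, for 8 other cows, 0.

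Outside the lists stood 197 of the 252 higher genes and 318 of the 329 lower ones. The higher genes with the lowest p here held several that are known from lymphocytes. DPP4, the surface peptidase CD26 of T cells, was 15.9, 38.2 and 67.9 against 1.1, 2.38 and 8.06 (3.71 ± 0.48, adjusted p = 0.00170). LPAR6, a receptor for lysophosphatidic acid, was 27.7, 41.9 and 70.7 against 4.28, 8.28 and 12 (2.44 ± 0.32, adjusted p = 0.00170). RBL2, a pocket protein that holds cells out of division, was 33.1, 74.3 and 129 against 6.80, 15.8 and 21.2 (2.25 ± 0.32, adjusted p = 0.00305). None of these overlapped between the groups, and RBL2 and LPAR6 were called in every fit. F2R, the thrombin receptor, was 33.9, 54.9 and 84.6 against 6.17, 15.9 and 21.0 (2.11 ± 0.30, adjusted p = 0.00314), and SLA2, an adaptor that dampens T cell receptor signals, was 14.3, 33.1 and 67.6 against 2.26, 5.38 and 9.45 (2.53 ± 0.38, adjusted p = 0.00314). SLC7A6, an amino acid transporter, rose by 2.60 ± 0.39 and CYFIP2, a part of the actin-regulating WAVE complex, by 2.09 ± 0.32, both with an adjusted p of 0.00314.

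The lower genes outside the lists with the lowest p were of mixed kinds. TUFT1, tuftelin, was 7.41, 8.42 and 25.3 (cow 3264) in the T cell-rich and 21.7, 48.9 and 147 in the T cell-poor cows (-2.60 ± 0.42, adjusted p = 0.00514). PSMB5, a catalytic subunit of the proteasome, was 37.9, 45.0 and 58.6 against 60.7, 117 and 240 (-1.53 ± 0.29, adjusted p = 0.0113) and did not overlap. DAD1, a subunit of the enzyme that attaches sugar chains to new secretory proteins, was 95.6, 107 and 133 against 150, 289 and 443 (-1.39 ± 0.28, adjusted p = 0.0159), again with no overlap. MARVELD1, a membrane protein, was 34.8, 42.4 and 61.1 against 65.7, 89.1 and 181 (-1.23 ± 0.24, adjusted p = 0.0147). EIF1AX, a translation initiation factor, was 113, 131 and 197 against 185, 319 and 485 (-1.27 ± 0.25, adjusted p = 0.0137). HES2 fell by 2.86 ± 0.55 (adjusted p = 0.0134), LARGE, a glycosyltransferase, by 1.87 ± 0.38 (adjusted p = 0.0178) and TBC1D7, a partner of the TSC complex, by 1.51 ± 0.29 (adjusted p = 0.0118). All 8 were still called with the milk protein share in the model, and none without the libraries of higher mapping rate, where their fold changes were -1.19 to -2.55.

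The 7 cows between took no part in the contrast and had scores from 5.29 to 6.21, a narrow range. The slopes below are on the CD3 score that also chose the groups, no gene passed, and they are a description that supports nothing. A slope of each gene on the score over these cows gave 0 genes at an adjusted p under 0.05 by edgeR (lowest 0.998), and 223 genes, 2.29%, at an unadjusted p under 0.05. Of the 252 genes higher in the T cell-rich cows, 162 (64.3%) had a slope above 0, against 42.9% of all genes. Of the 329 lower genes, 190 (57.8%) had a slope below 0, against 57.1% of all genes. Slopes were above 0 for 23 of 23 T cell receptor signalling genes and 20 of 22 surface receptors, with a median of 1.23 in both. The unadjusted p was 0.0107 for CD8A (slope 1.92), 0.0259 for CD8B (1.88), 0.0339 for F2R (1.90) and 0.0465 for UBD (1.47). For mammary epithelial genes the slopes ran against the groups, with 25 of 27 above 0 (median 1.12), and for cell cycle genes 2 of 26 were above 0 (median -1.25). Lists of other cells ran with the score as well, with slopes above 0 for 16 of 21 neutrophil genes (median 1.43), 16 of 18 immediate early genes (1.6), 12 of 13 B cell genes (1.13) and 26 of 29 interferon-induced genes (0.74), while 1 of 24 macrophage genes was above 0 (-1.34). Slopes in the direction of the score were therefore not particular to T cell genes in these cows.

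The traits of the cows come from the labels and were not used to choose the groups. HY cows were 2 of 7 T cell-rich and 4 of 7 T cell-poor cows (Fisher's exact test, two-sided p = 0.592). The breeding value for milk yield was 3.63 ± 292 (SD, n = 7) in the T cell-rich and 63.5 ± 238 (SD, n = 7) in the T cell-poor cows (exact permutation test, two-sided p = 0.677). The lactation period was 52 days at the shortest, 220 at the median and 262 at the longest in the T cell-rich cows, and 59, 102 and 243 days in the T cell-poor cows. The means were 193 ± 68.2 and 122 ± 65.6 days (SD, n = 7 each), a difference of 70.7 days that did not pass the exact permutation test (two-sided p = 0.0769, adjusted over 6 traits p = 0.462). The ranges overlapped, with cow 3407 early in lactation at 52 days among the T cell-rich and cow 7598 late at 243 days among the T cell-poor cows.

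Over all 21 cows the score and the lactation period had a Pearson's r of 0.451 (permutation p = 0.0405, adjusted over 6 traits p = 0.243) and a Spearman's rho of 0.322 (permutation p = 0.155, adjusted p = 0.928). When cows 3280 and 2893, whose scores lay farthest out, were dropped, r was 0.349, and within the 16 cows of lower mapping rate r was 0.526. Parity (2.29 against 2.43, exact permutation p = 1), milk fat (-4.47 ± 8.64 against -1.30 ± 5.80, exact permutation p = 0.433), milk protein (-0.464 against 2.05, exact permutation p = 0.551) and milk solid (4.94 against 5.66, exact permutation p = 0.958) differed by less than the spread between the cows. The last 3 are values without a unit in the labels.

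**Figure D5:**
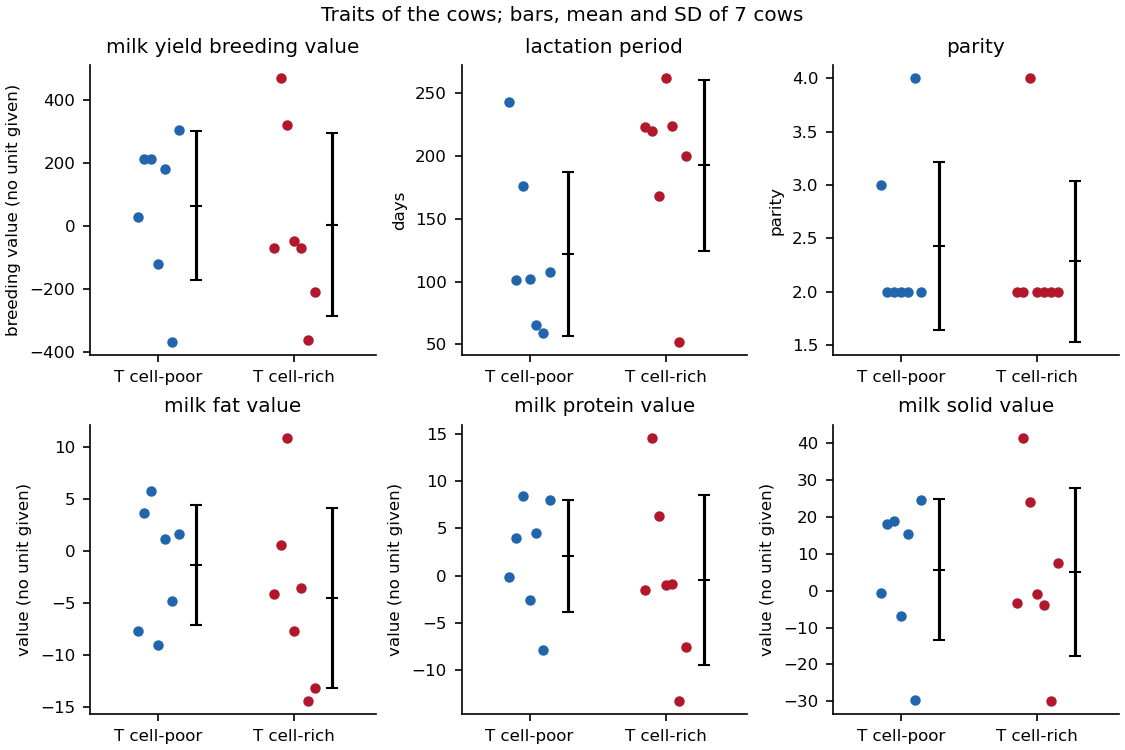
The 6 traits of the labels in the T cell-poor and the T cell-rich cows, with 1 point per cow and the mean ± SD of each group of 7. The ranges of the groups overlap in every panel, and the widest gap in means against the spread is that of the lactation period, at 193 and 122 days.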

How the data were processed

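Total RNA of milk somatic cells was sequenced from 21 cows, and 1 table of read counts per gene symbol was deposited for each cow. Per the labels and the study's methods, the authors trimmed reads with Trimmomatic, aligned them to bosTau7 with TopHat2 and Bowtie2 and counted them with HTSeq. The deposited counts are not normalized (the study scaled them by TMM afterwards). Versions were not given in the sources used here. Of 13570 gene rows, 1237 had no count in any cow, and lines for reads not placed on a gene (no feature, 13.0% to 31.9% as a share of the listed reads, and not unique, 21.6% to 27.5%) and a row without a symbol (at most 0.151% of counts) were left out. Calendar dates stood in place of 23 symbols, which were not named. No RefSeq sequence or coordinate of the build was used here.

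Genes with at least 10 counts in at least 7 of the 21 cows were tested with edgeR 4.0.16 in R 4.3.3 (TMM, quasi-likelihood F test, 7 against 7 cows, Benjamini-Hochberg adjusted p under 0.05). The SE is the log2 fold change divided by the square root of F. In libraries rich in milk protein the TMM factor was as low as 0.48, so that the TMM-scaled CPM of such a library sums to more than plain CPM does. Factors of the 7 cows between came from the same reference library. DESeq2 1.42.0 and limma 3.58.1 (voom) served as alternatives, beside other filters, scalings, group sizes and covariates and fits without each cow. Fits without the libraries of higher mapping rate (as the study's supplement lists them), with counts thinned to 7878557 per cow, and with total counts or milk protein share as a covariate were chosen after seeing the data. The fit was tested on simulated data. Traits were compared by exact permutation over all assignments of 7 and 7 cows, and correlations by 100000 permutations.

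The cows, the gene lists and the naming rule were chosen with earlier results of these data known. The rule named up to 4 called members of a list with the lowest p in each direction, for other cell types also the member with the most counts, and the genes outside the lists with the lowest p. Some genes are not reported here. Further list members were named for their known role, after their values were seen. Each cow is 1 library, and no 2 cows' counts agreed within sampling noise (lowest chi-square per degree of freedom 37.9).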

Additional observations from a re-analysis of the deposited data

Results flagged for a closer look

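In 120 groups of 7 values, one for each named gene in each group of cows, 3 single cows lay apart from the other 6 by a gap, as a share of the whole range, above Dixon's 95% critical value. Chance alone gives such a gap in about 1 of 20 groups. CD83 was 1325 TMM-scaled CPM in the T cell-rich cow 7643 and 184 to 419 in the others of its group. TUFT1 was 25.3 in the T cell-rich cow 3264 and 7.41 to 10.1 in the others. CCR8 was 0.454 in the T cell-poor cow 3198 and 0 to 0.115 in the others, values of very few counts.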

How the results depend on the processing

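The genes higher and lower in the T cell-rich cows numbered 252 and 329. They were 779 and 961 with DESeq2, 105 and 21 with HY or LY as a covariate, 28 and 2 with parity and lactation period as covariates, 166 and 127 with the milk protein genes left out, 38 and 2 for the 5 highest against the 5 lowest cows, and 956 and 1227 for the slope over 21 cows. The lower genes were 148 with limma-voom (375 higher). Without 1 cow at a time the counts ran from 72 to 623 and from 8 to 797. Among fits chosen after seeing the data, they were 4 and 0 without the libraries of higher mapping rate, 727 and 953 with total counts as a covariate, and 106 for the lower genes with the milk protein share as a covariate (226 higher). The cause of these shifts was not tested. Other filters, scalings, thinning and the 10 highest against the 10 lowest gave 203 to 291 and 263 to 386. Of the results for named genes, 1359 kept their side of the threshold, 354 lost it, and only CD83, not called, changed sign: -0.30 without cow 7643 (up to 0.39 without another cow), -0.0065 with limma-voom, -0.26 with the milk protein share and -0.51 without the libraries of higher mapping rate.

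Among trait differences, the lactation period passed 0.05 unadjusted for 5 against 5 cows (117 days), as a correlation (0.451) and without cow 3407 (94.2 days) or 7598 (90.9 days), and was at least 59.2 days without 1 cow. For 5 against 5 cows the sign turned for breeding value (79.1), milk fat (0.278), milk protein (1.42) and milk solid (6.96). Parity was 0 for 5 against 5, 0.200 for 10 against 10, 0.143 with the TMM score and 0.00891 as a correlation. Without 1 cow the difference ran from -137 to 1.46 (cow 3407) for breeding value, from -0.429 to 0.119 (cow 2893) for parity, and for milk solid from -6.79 to 5.09, above 0 without cow 3264 (0.693), 3272 (0.243), 7643 (0.760), 3407, 3075 (1.34), 3235 (1.49), 3262 (0.893) or 3280 (2.41). No paired analysis was possible because each library came from a different cow. A split by read classes outside genes was not run, although the share of reads placed on no gene had a higher median in the T cell-rich cows. Depth limits genes of a few counts, such as CCR8, CD28 and WC1.3.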

Other observations

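Gene families outside the lists were read by symbol after their values were seen, and are given as counts with no test. Genes whose symbols start with NDUFA, NDUFB, NDUFC, NDUFS or NDUFV encode subunits and assembly factors of mitochondrial complex I, which were not separated. Complex I passes electrons from NADH into the respiratory chain. Of 43 such genes tested, 39 were below 0 on the log2 scale, T cell-rich over T cell-poor cows (median -0.81), with 11 called lower and 0 higher. All 16 subunits of ATP synthase were below 0 (median -0.92), with 7 called lower. For mitochondrial ribosomal proteins 67 of 73 were below 0 (median -0.69) and 13 were called lower, and for the mitochondrial import machinery 20 of 21 were below 0 (median -0.78) and 6 were called lower. Proteasome core subunits had 16 of 17 below 0 (median -0.75), with 6 called lower, PSMB5 among them. Over all tested genes the median was 0.02 and 3.38% were called lower. In the 7 cows between, the slope on the score was below 0 for 41 of the 43 complex I genes, 13 of 16 for ATP synthase, 64 of 73 for mitochondrial ribosomal proteins and 14 of 17 for the proteasome, against 57.1% of all genes. The T cell-rich cows also had the deeper libraries and more of the libraries with the higher mapping rate, and their part in this pattern was not tested.

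On the higher side, where 2.59% of all tested genes were called, 3 of 4 tested GIMAP genes, GTPases that lymphocytes need to survive, were called (median 2.16). GIMAP7 had a mean level of 569 ± 230 TMM-scaled CPM (SD, n = 7) in the T cell-rich and 107 ± 60.0 (SD, n = 7) in the T cell-poor cows, with no overlap. Of 6 DOCK genes, which drive the cytoskeleton of moving white cells, DOCK8, DOCK10 and DOCK11 were called higher, and 2 of 4 diacylglycerol kinases, DGKA and DGKE. All 3 tested SMC genes, SMC1A, SMC3 and SMC4, which shape chromosomes, were called higher (median 1.74). Among kinesins 18 of 20 were above 0 (median 1.44), with KIF15 the 1 called. In the 7 cows between, slopes were above 0 for 4 of 4 GIMAP genes, 3 of 4 diacylglycerol kinases, 3 of 6 DOCK genes, 1 of 3 SMC genes and 5 of 20 kinesins, so the last 3 families did not follow the score there.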
